A study of Mus musculus with 7 samples.

Results

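Adgre1, Itgam, Csf1r, Mrc1, Cd68, Ms4a7, Cbr2 and Cd163 are genes by which tissue macrophages are recognised, and several of them code for proteins on the macrophage surface. They were taken by name from the count tables, 8 of 33864 genes listed, and all 8 are listed for every group. The genes were followed in single-cell RNA-seq of the pancreas of 7 C57BL/6 mice aged 2 months, with 1 library per mouse. The 2 WT mice and the 3 i4F mice were given doxycycline in the water for 7 days, at 1 mg/ml. In i4F mice 1 copy of Pparg holds an insert from which doxycycline induces the reprogramming factors c-Myc, Klf4, Oct4 and Sox2, and the mice also carry the reverse transactivator rtTA under the ubiquitous Rosa26 promoter, so that the macrophages themselves can carry the induced factors. The 2 caerulein mice were wild type and received caerulein, a secretagogue that injures acinar cells, at 100 µg/kg in 7 injections a day on 2 days. The labels give no doxycycline for the caerulein mice, so caerulein and the absence of doxycycline cannot be told apart in the comparison with WT. The design sets partial reprogramming (i4F against WT) beside injury (caerulein against WT), and the same 2 WT mice serve both comparisons.

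Macrophages of an adult organ come from cells seeded before birth and from blood monocytes that enter later, and both depend on signalling through CSF1R, the receptor tyrosine kinase for the growth factors CSF1 and IL-34. ADGRE1, better known as F4/80, is an adhesion G protein-coupled receptor used as the classical mouse macrophage marker. ITGAM (CD11b) pairs with ITGB2 to form an integrin that binds complement fragments and is abundant on monocytes and neutrophils. MRC1 (CD206) and CD163 are endocytic receptors, the former for mannosylated glycoproteins and the latter for complexes of haemoglobin and haptoglobin, and both are typical of resident macrophages in undisturbed tissue. CD68 is a glycoprotein of late endosomes and lysosomes, MS4A7 is a membrane protein of the tetraspan MS4A family, and CBR2 is a carbonyl reductase found in resident macrophages of several organs.

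The promoters of Itgam, Cd68, Ms4a7 and Cd163 are shown, since each passed 1 of the tests within macrophages given below. The share of all genes passing at least 1 of those tests is not given, so this choice says nothing of the 8 genes as a group. The windows are the 250 bases before the transcript start in RefSeq on GRCm38.p6, written 5′ to 3′ on the gene's strand. Capitals mark GAGGAA or its reverse complement TTCCTC, the core letters bound by PU.1, the product of Spi1 and a master regulator of myeloid genes. The windows are chr7:128062390-128062639 (plus strand) for Itgam, chr11:69666171-69666420 (minus strand) for Cd68, chr19:11336147-11336396 (minus strand) for Ms4a7 and chr6:124304401-124304650 (plus strand) for Cd163.
Itgam: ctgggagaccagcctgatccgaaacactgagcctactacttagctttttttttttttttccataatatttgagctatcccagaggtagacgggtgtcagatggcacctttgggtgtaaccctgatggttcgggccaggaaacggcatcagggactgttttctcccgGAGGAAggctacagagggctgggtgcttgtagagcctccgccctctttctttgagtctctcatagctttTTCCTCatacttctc
Cd68: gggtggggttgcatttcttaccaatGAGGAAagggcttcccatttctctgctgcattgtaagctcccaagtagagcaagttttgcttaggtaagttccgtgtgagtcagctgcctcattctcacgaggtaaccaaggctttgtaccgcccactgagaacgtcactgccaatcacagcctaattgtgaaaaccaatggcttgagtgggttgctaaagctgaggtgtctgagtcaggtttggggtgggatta
Ms4a7: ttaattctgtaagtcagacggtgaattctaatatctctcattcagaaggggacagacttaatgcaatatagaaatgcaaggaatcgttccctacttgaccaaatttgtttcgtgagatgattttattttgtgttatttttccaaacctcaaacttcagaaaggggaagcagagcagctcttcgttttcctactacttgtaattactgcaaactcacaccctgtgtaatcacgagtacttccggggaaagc
Cd163: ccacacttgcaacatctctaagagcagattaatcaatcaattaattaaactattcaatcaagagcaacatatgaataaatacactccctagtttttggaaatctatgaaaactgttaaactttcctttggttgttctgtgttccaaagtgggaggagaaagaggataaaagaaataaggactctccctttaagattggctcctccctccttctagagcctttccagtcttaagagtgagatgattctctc

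The Itgam window held 2 matches, at 84 and 15 bases before the start, and the Cd68 window held 1, at 225 bases. The Ms4a7 window and the Cd163 window held none of these letters, and neither did the window of a further Ms4a7 start. Promoter entries were found for 6 of the 8 genes, and 4 of these 6 had at least 1 match, the others being Mrc1 with 3 matches and Cbr2 with 1. Counted by window, 4 of the 7 windows of these 6 genes held a match. Over all 32851 RefSeq windows of this length, 23.3% held the letters on either strand, and no enrichment was tested. A match describes the letters of a window and no binding was measured.

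In RefSeq on GRCm38.p6, Itgam spans chr7:128062640-128118491 (plus strand). Strands and overlaps are taken from GENCODE, in which Itgam overlaps the predicted gene Gm49368 on the same strand. Gm49368 is listed in the data too, so some reads of Itgam may not have been counted for Itgam. Adgre1 spans chr17:57358581-57483529 (plus), Mrc1 chr2:14229414-14332023 (plus), Cd68 chr11:69664213-69666170 (minus) and Ms4a7 chr19:11321039-11336146 (minus). Cbr2 spans chr11:120729485-120732025 (minus) and Cd163 chr6:124304636-124330529 (plus), which reaches into the end of the window shown. Csf1r overlaps Hmgxb3 on the other strand, and whether reads were counted by strand is not given in the sources used here.

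The libraries held 4327 to 15138 cells and 15469018 to 64784216 unique molecular identifiers (UMIs, each standing for 1 captured RNA molecule), and pairs of libraries shared 3 to 39 cell barcodes. The authors clustered the cells of each group separately and named the clusters. Clusters named macrophages made up 2.40% and 8.13% of the WT cells by mouse, 35.6%, 39.6% and 6.30% of the i4F cells, and 50.3% and 40.3% of the caerulein cells. The library of i4F mouse 3 thus stood apart from the other i4F mice. Not every cluster with that name carried macrophage markers foremost. The 6 macrophage markers C1qa, C1qb, C1qc, Apoe, Lyz2 and Fcgr1 summed to 42220 and 45547 CPM (UMIs after scaling each set of cells to an equal UMI total) in the WT cluster Macrophages_1, but to 5723 and 4952 CPM in WT Macrophages_2, where 8 dendritic cell markers reached 24511 and 20272 CPM. In i4F Macrophages_2 and caerulein Macrophages_3, 7 neutrophil markers summed to 52540 CPM or more in every mouse. Therefore each gene was measured in all clusters named macrophages and, as a comparison chosen after seeing these markers, in matched clusters: WT Macrophages_1 (45 and 418 cells), i4F Macrophages_1 (2921, 2735 and 183 cells) and caerulein Macrophages_1 and Macrophages_2 together (6989 and 2752 cells). The cluster i4F Macrophages_3 (215, 87 and 282 cells) was left out too, and its marker sums are not given here. It held 282 of the 480 cells named macrophages in i4F mouse 3. In that mouse Cd163 was at 47.1 CPM over all clusters named macrophages and 105 CPM in the matched cluster, and Cbr2 at 134 and 315 CPM. The neutrophil markers summed to 80.2 to 1737 CPM in the matched clusters, the highest value being that of i4F mouse 2. Dendritic cell markers were not even across the matched clusters: the 8 of them summed to 4872 and 5605 CPM in the WT mice, 1949 to 2840 CPM in the i4F mice and 2335 and 2177 CPM in the caerulein mice, with Cst3, which macrophages express too, the highest in every mouse and Flt3 and Xcr1 at 0 in both WT mice. Of the 4 that could be tested there, Cst3 and Cd209a fell both in i4F and in caerulein against WT by edgeR (Cd209a was at 0 in WT mouse 1), and their part in the results in matched clusters was not tested. WT mouse 1 enters the matched comparison with 45 cells and 281197 UMIs, so its values are the least precise.

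The 8 transcripts were concentrated in the macrophage clusters in every group. The authors named the clusters from their marker genes, so these shares are given as a description. Between 81.1% and 100% of the UMIs of Adgre1, Itgam, Mrc1, Cd68, Ms4a7, Cbr2 and Cd163 lay in clusters named macrophages, whichever mouse was taken. Csf1r was the exception, with 75.1% in WT mouse 1, 78.6% in i4F mouse 1 and 58.3% in i4F mouse 2. In the dendritic cell marker cluster WT Macrophages_2, Cd68 remained at 281 and 345 CPM and Csf1r at 70.3 and 130 CPM, whereas Ms4a7 was at 2.70 and 6.40 CPM and Cbr2 at 0 and 2.13 CPM (for the 0, 3 UMIs would have been 8.11 CPM). In i4F Macrophages_2, with its neutrophil markers, Itgam was the highest of the 8 genes in mice 1 and 2 at 289 and 372 CPM, and Cd68 stood at 79.3 and 85.9 CPM there (mouse 3 had 15 cells in this cluster). Itgam and Cd68 were thus also found in clusters led by the markers of other cells.

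**Figure D1:**
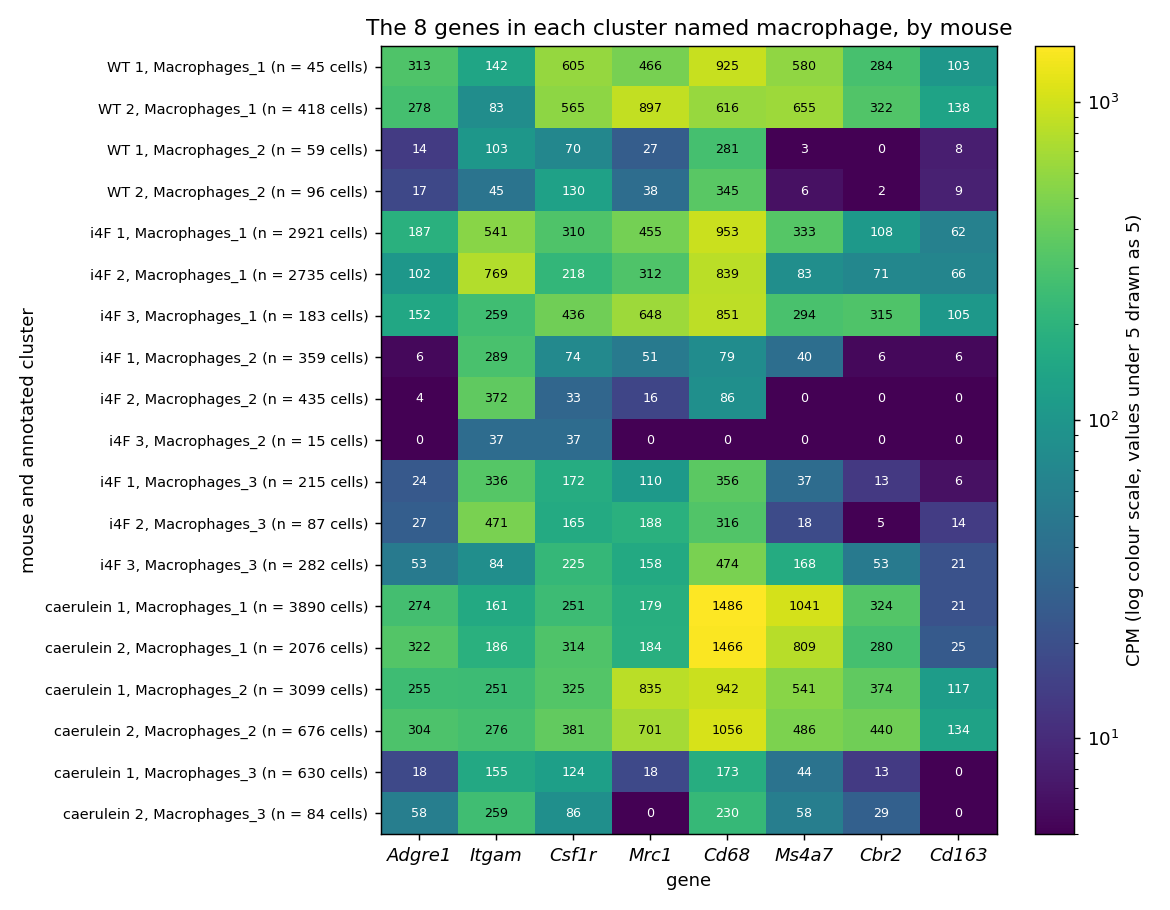
CPM of the 8 genes (columns) in each cluster named macrophages of each mouse (lines, with the number of cells), on a log colour scale that starts at 5 CPM, with the CPM printed in each field. Ms4a7 and Cbr2 are dark in WT Macrophages_2, and Itgam is the brightest gene of i4F Macrophages_2 in mice 1 and 2.

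Mrc1 was also present in the small WT cluster named Lymph_nodes (38 and 50 cells), which carries lymphatic endothelial markers. There Mrc1 reached 171 and 101 CPM, while Csf1r and Cd68 were at 0 in both mice, at a depth where 3 UMIs would have been 25.6 and 18.9 CPM. The mannose receptor is known from lymphatic endothelium as well as from macrophages. In the caerulein cluster named B lymphocytes, Cd68 was at 522 and 622 CPM and Csf1r at 126 and 150 CPM, and in the WT B lymphocytes Cd68 was at 18.5 and 14.3 CPM and Csf1r at 0, where 3 UMIs would have been 13.9 and 7.15 CPM. In that caerulein cluster the 8 dendritic cell markers summed to 7526 and 6416 CPM. Its sums of B cell and macrophage markers are not given here, so no cell type is read from this sum.

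Taking all clusters named macrophages together, no member passed the test in i4F against WT (edgeR quasi-likelihood test on UMIs summed per mouse, Benjamini-Hochberg adjusted over all genes with a threshold of 0.05), where 0.00828% of 12077 genes did. At an unadjusted p under 0.05 there were 2401 such genes, and DESeq2 called 1 member, Itgam. In caerulein against WT, 1 of the 8 genes passed, Cd68, which was higher, beside 5.66% of all genes and 2.24% in that direction. In i4F against caerulein no member passed, beside 1.67% of all genes (2685 genes at an unadjusted p under 0.05, and 3 members by DESeq2). The share of all genes called by DESeq2 is not given here, so its counts say nothing of the 8 genes as a group. In the matched clusters 1 of the 8 genes passed in each comparison: Itgam higher in i4F than in WT (6.08% of 12272 genes called, 2.95% in that direction), Cd163 lower in caerulein than in WT (9.44% called, 5.3% in that direction) and Ms4a7 lower in i4F than in caerulein (6.98% called, 2.1% in that direction). With 1 gene called of 8, these counts are near the background shares and say nothing of the 8 genes as a group, so the results concern the genes named.

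**Figure D2:**
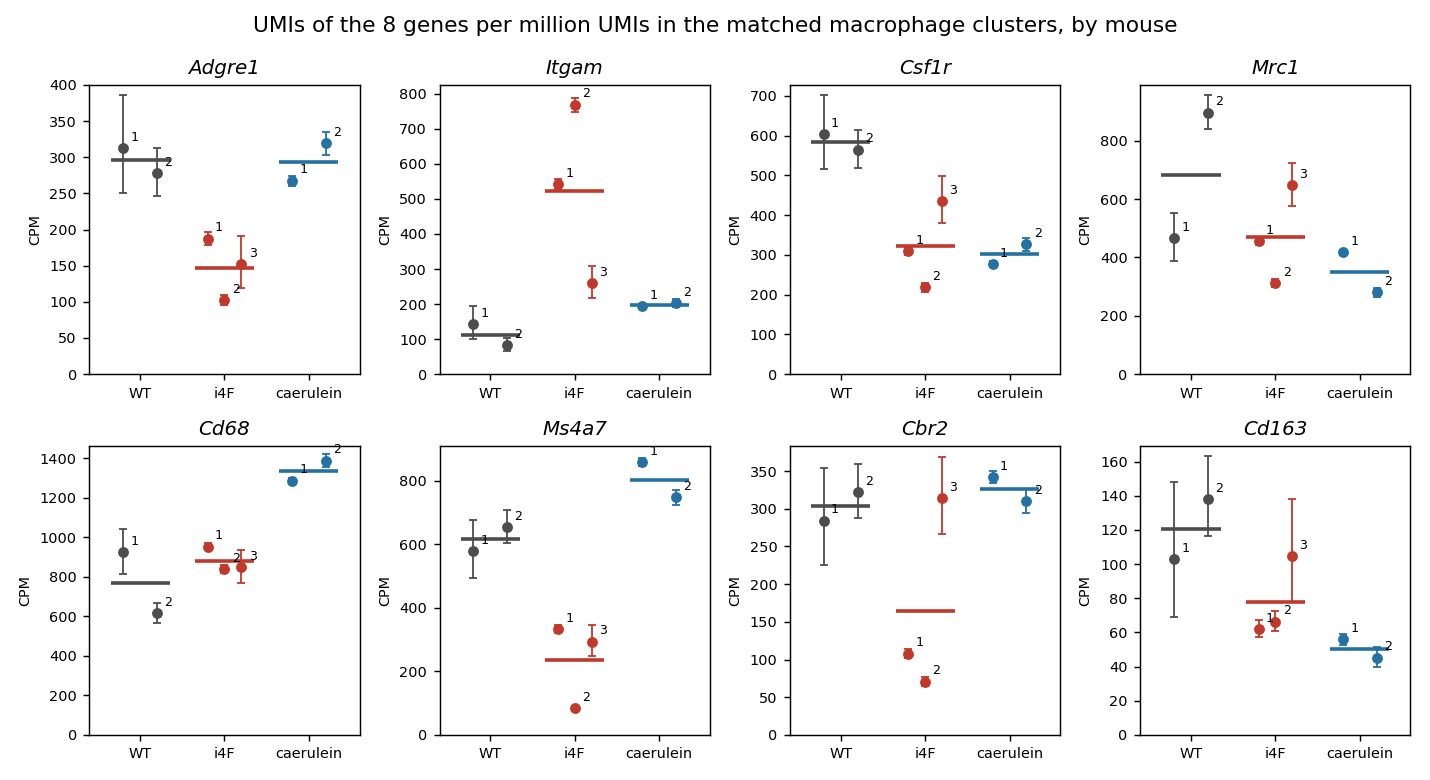
CPM of each gene in the matched macrophage clusters, 1 point per mouse with the exact 95% Poisson interval of its UMI count (counting error alone) and a line at each group's mean. Itgam is highest in the 3 i4F mice, Cd68 in the 2 caerulein mice, and Cd163 is lowest in the 2 caerulein mice.

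Itgam, the integrin subunit shared with monocytes and neutrophils, was the member called higher in i4F than in WT macrophages. In the matched clusters it stood at 142 and 82.5 CPM in the WT mice and at 541, 769 and 259 CPM in the i4F mice. The 2 groups did not overlap, and mouse 3 was the lowest of the i4F mice. The means were 112 ± 42.2 CPM in WT (SD, n = 2) and 523 ± 255 CPM in i4F (SD, n = 3), a log2 fold change of 2.44 (SE 0.49, adjusted p = 0.0247 by edgeR). The 2 caerulein mice had 194 and 203 CPM, also above both WT mice, but the difference from WT missed the threshold (log2 fold change 0.97, SE 0.49, adjusted p = 0.241). Against caerulein, i4F macrophages were higher by 1.47 on the log2 scale (SE 0.44), which did not pass either (adjusted p = 0.0766) but passed with DESeq2 (0.0265) and, by edgeR, without a filter on low counts (0.000432) and without i4F mouse 3 (0.01).

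Taken over all clusters named macrophages, Itgam was at 120 and 70.5 CPM in WT, 525, 748 and 138 CPM in i4F, and 194 and 203 CPM in caerulein mice. For i4F mouse 3 this was lower than in its matched cluster, which leaves out its Macrophages_2 and Macrophages_3. The log2 fold change of i4F over WT was again 2.44, but with an SE of 0.67 the adjusted p was 0.147. The call in the matched clusters was lost without WT mouse 2 (adjusted p = 0.219), i4F mouse 1 (0.0962), i4F mouse 2 (0.0719) or caerulein mouse 1 (0.0513), while the log2 fold change stayed between 2.00 and 2.87 (edgeR). It was also lost with the 2 groups alone (0.0755) and with library series as a term (0.221). Library names form 2 series, AL with WT mouse 1 and the 3 i4F mice and AM with WT mouse 2 and the caerulein mice. Within AL, all 3 i4F mice were above WT mouse 1, with a log2 ratio of 1.88, and within AM both caerulein mice were above WT mouse 2, with a log2 ratio of 1.26. The neutrophil markers were at 99.6 and 146 CPM in the WT, 244, 1737 and 80.2 CPM in the i4F and 143 and 130 CPM (Macrophages_1) or 143 and 148 CPM (Macrophages_2) in the caerulein matched clusters. The markers did not move as one: of the 6 tested for i4F against WT, 4 log2 fold changes were positive and the median was 6.76, while the only one called, Csf3r, fell from 46.2 and 32.8 CPM in WT to 13.6, 12.2 and 14.4 CPM in i4F mice. S100a9, Retnlg and Cxcr2 held 0 UMIs in both WT mice, so the size of that median is not read. S100a8, the most abundant in i4F mice 1 and 2, was at 24.9 and 0.994 CPM in WT and 121, 1097 and 10.3 CPM in i4F mice (adjusted p = 0.0885 by edgeR), and S100a9 was at 0 in both WT mice and at 54.7, 458 and 4.11 CPM in i4F mice. The part of these markers in the Itgam result was not tested.

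The share of cells with an Itgam UMI moved with the level. After each cell of the matched clusters was thinned to 1000 UMIs, 13.6% and 6.85% of the WT cells kept an Itgam UMI, against 43.4%, 51.2% and 25.2% of the i4F cells and 18.2% and 19.3% of the caerulein cells. Without thinning the shares were 28.9% and 17.2%, 73.7%, 77.4% and 34.4%, and 42.2% and 30.2%. Endothelial cells, which should lack the gene, gave 0% in both WT mice and i4F mouse 3, where counts of 0 allow up to 0.637%, 0.379% and 1.06%, and no more than 3.39% in any mouse. Cells with under 1000 UMIs were left out of these shares, 54 of the WT, 531 of the i4F and 870 of the caerulein matched cells and 1071, 819 and 368 of the endothelial cells. The median depth before thinning was 1752 to 4766 UMIs per matched cell and 601 to 1483 UMIs per endothelial cell by mouse, and these limits cover counting error alone.

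Csf1r, the growth factor receptor, was high in WT macrophages and lower in the other 5 mice, without passing the test. It was at 605 and 565 CPM in the WT mice, 310, 218 and 436 CPM in the i4F mice, and 277 and 326 CPM in the caerulein mice. No i4F or caerulein mouse reached the level of either WT mouse. The group means were 585 ± 28.2 (SD, n = 2), 321 ± 110 (SD, n = 3) and 302 ± 34.4 CPM (SD, n = 2). The log2 fold changes were -0.75 (SE 0.27, adjusted p = 0.115) for i4F and -0.85 (SE 0.29, adjusted p = 0.0978) for caerulein against WT, by edgeR. The former passed without i4F mouse 3 (adjusted p = 0.0375) and the latter with the 2 groups alone (0.0477), also by edgeR. Within the name series the log2 ratios were -0.91 (AL) and -0.90 (AM). Over all clusters named macrophages, which in WT include the cells with dendritic cell markers, Csf1r was at 301 and 427 CPM in WT and 211 to 324 CPM in the other mice, and the separation was no longer complete.

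Adgre1, the gene of F4/80, was at 313 and 278 CPM in the WT mice, 187, 102 and 152 CPM in the i4F mice, and 268 and 319 CPM in the caerulein mice. The i4F mice lay below all other mice, and the WT and caerulein mice overlapped. The log2 fold change was -0.86 (SE 0.28) for i4F against WT and -0.96 (SE 0.27) for i4F against caerulein, with adjusted p values of 0.0924 and 0.0636 by edgeR. Neither difference passed the threshold, but the one against caerulein passed without a filter on low counts (log2 fold change -0.99, adjusted p = 0.0213 by edgeR). Caerulein differed from WT by 0.09 on the log2 scale (SE 0.30, adjusted p = 0.882), and this changed sign to -0.0086 without TMM scaling.

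Cd163, the haemoglobin scavenger receptor, was the member called lower in caerulein than in WT macrophages. It stood at 103 and 138 CPM in the WT mice, 62.0, 66.4 and 105 CPM in the i4F mice, and 55.9 and 45.2 CPM in the caerulein mice. Both caerulein mice lay below every other mouse, and i4F mouse 3 lay within the WT range. The means were 121 ± 24.8 CPM in WT and 50.5 ± 7.53 CPM in caerulein mice (SD, n = 2 each), and Cd163 fell by 1.16 on the log2 scale (SE 0.30, adjusted p = 0.0393 by edgeR). Within the AM series the log2 ratio was -1.45, with both caerulein mice below WT mouse 2. For i4F against WT the log2 fold change was -0.58 (SE 0.28, adjusted p = 0.221).

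The Cd163 difference was called in the matched clusters and not over all clusters named macrophages. Over all clusters named macrophages, Cd163 was at 49.2 and 97.0 CPM in WT and 55.3 and 44.9 CPM in caerulein mice, and the groups overlapped (log2 fold change -0.51). The call in the matched clusters was lost without WT mouse 2 (adjusted p = 0.325), caerulein mouse 1 (0.135), caerulein mouse 2 (0.262), i4F mouse 1 (0.0616) or i4F mouse 2 (0.0509), with log2 fold changes from -1.40 to -0.87 (edgeR). After thinning to 1000 UMIs, 11.4% and 13.7% of WT cells, 3.93%, 3.79% and 9.16% of i4F cells and 4.49% and 3.26% of caerulein cells of the matched clusters had a Cd163 UMI. Unthinned shares were 28.9% and 21.1%, 7.36%, 6.87% and 13.1%, and 10.0% and 5.49%. Endothelial cells gave 1.71% and 1.69% in the caerulein mice and 0% in the other mice after thinning (counts of 0 allow up to 0.379% to 2.22%). Stellate cells of the caerulein mice gave 0.14% and 0.0518%. The background under the caerulein shares of 4.49% and 3.26% thus depends on the cells taken, and it was not tested in macrophages.

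Mrc1, the mannose receptor, varied most between the WT mice. It was at 466 and 897 CPM in the WT mice, 455, 312 and 648 CPM in the i4F mice, and 418 and 280 CPM in the caerulein mice. Both caerulein mice lay below both WT mice, and the i4F mice overlapped the WT mice. The log2 fold changes were -0.43 (SE 0.36, adjusted p = 0.498) for i4F and -0.85 (SE 0.40, adjusted p = 0.205) for caerulein, and neither passed by edgeR. The i4F value changed sign to 0.14 without WT mouse 2 and to 0.13 with series as a term. The WT mean was 681 ± 305 CPM (SD, n = 2), and this spread limits what can be said of the gene.

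Within the matched clusters, cells with a Cd163 UMI more often had an Mrc1 UMI in every mouse, which is given as a description. In the WT mice 92.3% and 87.5% of cells with Cd163 had Mrc1, against 68.8% and 69.7% of those without. In the i4F mice the shares were 87.0%, 85.1% and 83.3% against 39.6%, 21.5% and 30.2%, and in the caerulein mice 81.6% and 68.2% against 42.1% and 27.0%. Cells with Cd163 had the higher median depth in all i4F and caerulein mice and the lower in both WT mice, and depth was not evened out in these shares. WT mouse 1 had 13 cells with Cd163.

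Cd68, the lysosomal glycoprotein, was the most abundant of the 8 transcripts in UMIs of caerulein macrophages. In the matched clusters it was at 925 and 616 CPM in the WT mice, 953, 839 and 851 CPM in the i4F mice, and 1288 and 1389 CPM in the caerulein mice. Both caerulein mice lay above every other mouse. In the matched clusters the log2 fold change of caerulein over WT was 0.91 (SE 0.27), short of the threshold (adjusted p = 0.0646 by edgeR), and within the AM series the log2 ratio was 1.12. It passed with series as a term (log2 fold change 1.22, adjusted p = 0.0343), without WT mouse 1 (1.26, 0.0415) and without a filter (0.0406). Over all clusters named macrophages, Cd68 was at 559 and 530 CPM in WT, 904, 801 and 584 CPM in i4F, and 1277 and 1382 CPM in caerulein mice, and it rose by 1.34 on the log2 scale with caerulein (SE 0.28, adjusted p = 0.0424).

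The WT value of that comparison includes the cells with dendritic cell markers, in which Cd68 was at 281 and 345 CPM. The Cd68 call held without i4F mouse 3 (adjusted p = 0.0072) and was lost without WT mouse 1 (0.105), WT mouse 2 (0.117), caerulein mouse 1 (0.241), caerulein mouse 2 (0.216), i4F mouse 1 (0.0635) or i4F mouse 2 (0.063), and with series as a term (0.111), while with a mouse left out the log2 fold change ranged from 1.31 to 1.46 (edgeR). Between i4F and WT, Cd68 in the matched clusters differed by 0.34 on the log2 scale (SE 0.25, adjusted p = 0.434). Thinned to 1000 UMIs, 68.2% and 69.9% of caerulein cells of the matched clusters had a Cd68 UMI, against 43.2% and 39.7% of WT cells (87.1%, 80.9%, 95.6% and 59.1% unthinned). In endothelial cells the thinned shares were 15.7% and 9.32% in caerulein mice and 0.64% and 0.25% in WT mice.

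Ms4a7, the MS4A family membrane protein, was the member called between the 2 treatments. It was at 580 and 655 CPM in the WT mice, 333, 83.5 and 294 CPM in the i4F mice, and 859 and 749 CPM in the caerulein mice. The 3 groups did not overlap, with i4F lowest and caerulein highest. i4F macrophages were lower than caerulein macrophages by 1.76 on the log2 scale (log2 fold change -1.76, SE 0.45, adjusted p = 0.0477 by edgeR). Against WT, the log2 fold changes were -1.27 (SE 0.46, adjusted p = 0.123) for i4F and 0.49 (SE 0.51, adjusted p = 0.584) for caerulein. The i4F difference from WT passed without a filter on low counts (log2 fold change -1.20, adjusted p = 0.00294 by edgeR). The call between the treatments was lost whichever of the 7 mice was left out: the adjusted p was 0.0511 without WT mouse 1, 0.0539 without WT mouse 2, 0.28 without caerulein mouse 1, 0.216 without caerulein mouse 2, 0.0715 without i4F mouse 1, 0.0529 without i4F mouse 2 and 0.0624 without i4F mouse 3. All i4F libraries are of the AL series and both caerulein libraries of the AM series, so series and treatment cannot be told apart in the direct comparison. With series as a term the log2 fold change was -1.58 (SE 0.92, adjusted p = 0.49), and the call was also lost with the 2 groups alone (0.0623) and with cells of at least 500 genes (0.0511).

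Cbr2, the carbonyl reductase, was at 284 and 322 CPM in the WT mice, 108, 70.7 and 315 CPM in the i4F mice, and 342 and 310 CPM in the caerulein mice. i4F mice 1 and 2 were low, and i4F mouse 3 lay among the WT and caerulein mice. The i4F mean of 164 ± 131 CPM (SD, n = 3) therefore has a wide error, and neither i4F against WT (log2 fold change -0.86, SE 0.48, adjusted p = 0.292) nor i4F against caerulein (-1.07, SE 0.47, adjusted p = 0.192) passed by edgeR. Without i4F mouse 3, Cbr2 passed as lower in i4F than in WT (log2 fold change -1.60, adjusted p = 0.0108) and than in caerulein (-1.79, adjusted p = 0.00822), and Csf1r passed as lower than in WT (-0.98, adjusted p = 0.0375). Without a filter on low counts Cbr2 also passed for i4F against caerulein (adjusted p = 0.00621). Caerulein and WT differed by 0.21 on the log2 scale (SE 0.52, adjusted p = 0.837).

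**Figure D3:**
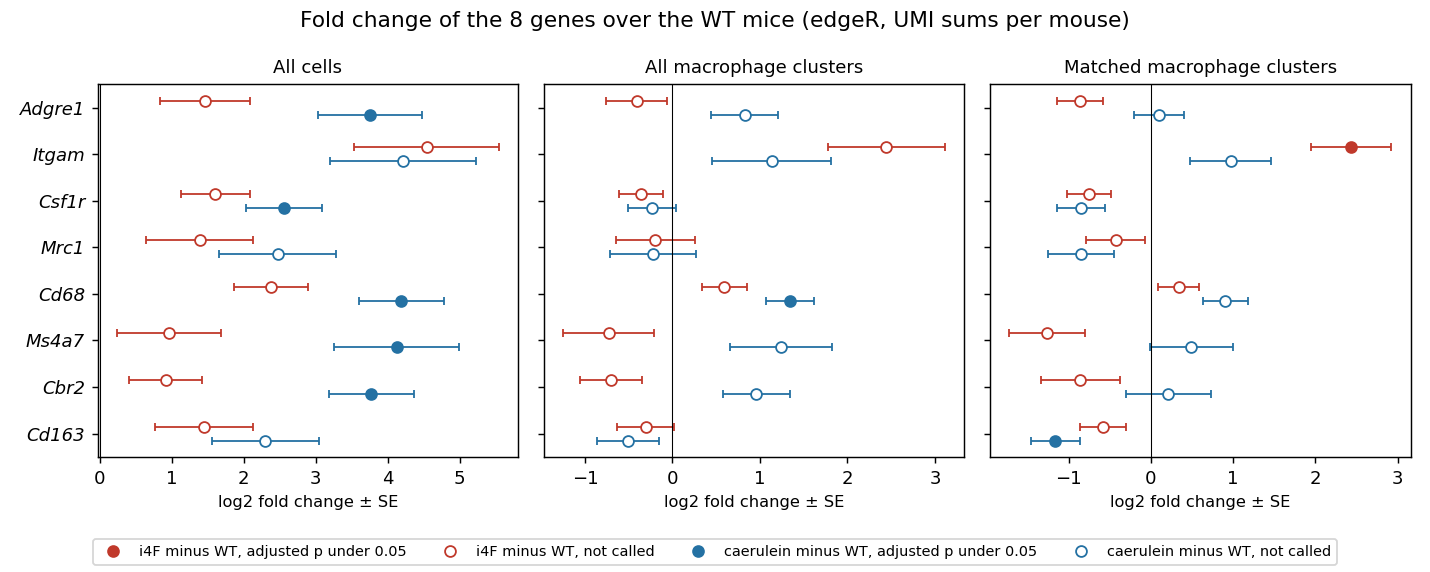
Log2 fold change over the WT mice with its SE by edgeR for each of the 8 genes (vertical axis), for i4F in red and caerulein in blue, in all cells, all clusters named macrophages and the matched clusters. Filled points passed the adjusted threshold of 0.05: Adgre1, Csf1r, Cd68, Ms4a7 and Cbr2 for caerulein in all cells, Cd68 for caerulein in the macrophage clusters, and Itgam for i4F and Cd163 for caerulein in the matched clusters.

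Over all cells of a library, the levels of the 8 transcripts also depend on how many macrophages it holds. Such sums combine the number of macrophages with the level within them, and the levels within macrophages are those given above. In the caerulein mice 5 of the 8 genes passed as higher than in WT, beside 9.08% of 18340 genes called and 5.15% called higher: Adgre1, Csf1r, Cd68, Ms4a7 and Cbr2. Cd68 was at 26.7 and 42.6 CPM in the WT mice and 503 and 474 CPM in the caerulein mice, with no overlap and a log2 fold change of 4.19 (SE 0.58, adjusted p = 0.0308 by edgeR). Ms4a7 rose by 4.12 (SE 0.87, adjusted p = 0.0442), Adgre1 by 3.76 (SE 0.73, adjusted p = 0.0403) and Csf1r by 2.56 (SE 0.53, adjusted p = 0.0431) on the log2 scale. Itgam, with 4.99 and 5.43 CPM in WT and 77.3 and 70.1 CPM in caerulein mice, was just short of the threshold (log2 fold change 4.21, adjusted p = 0.0506). It passed with DESeq2 (adjusted p = 4.03e-05) and, by edgeR, with the 2 groups alone (0.00193) and without i4F mouse 3 (0.000585).

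The caerulein calls over all cells rested on few mice. Without WT mouse 1, WT mouse 2, caerulein mouse 1, caerulein mouse 2 or i4F mouse 2 none of the 8 genes passed, without i4F mouse 1 Csf1r did not, and without i4F mouse 3 all 8 did. With library series as a term no member passed. In i4F against WT over all cells, no member and no gene passed (0% of 18340, with 6383 genes at an unadjusted p under 0.05 and 3 members by DESeq2). Without i4F mouse 3, 5 of the 8 genes passed as higher: Adgre1 (adjusted p = 0.0179), Itgam (0.000259), Csf1r (0.00749), Cd68 (0.000896) and Cd163 (0.0448), by edgeR. The shares of all genes called by DESeq2 or with a mouse left out are not given here. The counts in those settings thus say nothing of the 8 genes as a group. In the main fit the 8 log2 fold changes of i4F over WT were all positive, with a median of 1.46 beside 0.04 over all genes. Itgam was at 101, 164 and 14.9 CPM in the i4F mice, and even the lowest was above both WT mice. Adgre1 was at 32.8, 21.5 and 9.24 CPM in the i4F mice against 5.53 and 14.2 CPM in WT, so i4F mouse 3 lay between the WT mice.

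The 2 caerulein macrophage clusters differed in the scavenger receptors. The clusters were built from all genes, these included, so the differences are given as a description. Mrc1 was at 179 and 184 CPM in Macrophages_1 and 835 and 701 CPM in Macrophages_2, and Cd163 at 21.3 and 24.9 CPM against 117 and 134 CPM. Cd68 and Ms4a7 went the other way, with Cd68 at 1486 and 1466 CPM against 942 and 1056 CPM and Ms4a7 at 1041 and 809 CPM against 541 and 486 CPM. Adgre1 was similar in both, at 274 and 322 CPM and at 255 and 304 CPM. In Macrophages_2, Cd163 thus reached the range of the WT mice (103 and 138 CPM), and the low Cd163 of the caerulein mice lay in Macrophages_1, which gave 63.7% and 81.4% of the UMIs of the matched clusters.

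Csf1r was the member with the lowest share of its UMIs in macrophage clusters in WT mouse 1, every i4F mouse and both caerulein mice. In WT mouse 1 the ductal cells held 15.7% of its UMIs (41), the mesothelium 5.36% (14) and the stellate clusters 3.07%. Ductal Csf1r was at 6.91 and 10.7 CPM in WT, 10.3, 8.63 and 16.9 CPM in i4F and 20.2 and 18.5 CPM in caerulein mice. In the WT mesothelium Csf1r was at 21.9 and 13.7 CPM. In the stellate cell clusters, fibroblast-like cells of the pancreas, its UMIs numbered 8 and 9 by mouse in WT, 816, 1120 and 26 in i4F, and 485 and 113 in caerulein. These are 1.50 and 0.986 CPM, 18.8, 48.4 and 6.43 CPM, and 17.4 and 15.0 CPM. Every i4F and caerulein mouse lay above both WT mice. The pooled clusters differ by name. Most WT cells were in clusters named quiescent, with 114 and 161 cells named activated. All i4F and caerulein cells were in clusters named activated. The second activated cluster held 144, 126 and 1167 i4F cells by mouse, and the first 4249, 2555 and 113. WT activated cells held 0 Csf1r UMIs, where 3 UMIs would have been 7.64 and 6.90 CPM. The part of stellate state in these differences was not tested. Cd68 was higher than Csf1r in WT and caerulein stellate cells, at 3.75 and 2.96 CPM and at 57.7 and 44.5 CPM, and lower in the i4F mice at 12.4, 12.4 and 5.94 CPM. In i4F mouse 2, 39.6% of all Csf1r UMIs of the library were in stellate clusters, and in i4F mouse 1 20.1%. The comparison was added after these UMIs were seen, and gave a log2 fold change of 4.51 for i4F against WT (SE 0.90, adjusted p = 0.0252 by edgeR) and of 3.90 for caerulein (SE 0.92, adjusted p = 0.0351). In these clusters 20.6% of 14818 genes were called for i4F (12% as higher) and 17.1% for caerulein (9.99% as higher), and 4 and 6 of the 8 genes passed as higher. Markers of immune cells moved in the same clusters: 5 of the 6 macrophage markers (all but Apoe) passed as higher in both comparisons, and of 4 neutrophil markers tested 4 passed as higher for i4F and 3 for caerulein. The 7 neutrophil markers summed to 0.562 and 0.986 CPM in WT, 33.8, 51.0 and 92.0 CPM in i4F and 37.5 and 20.8 CPM in caerulein stellate cells, and the part of RNA from immune cells in these calls was not tested.

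To set Csf1r beside the other 7 genes in stellate cells, each gene was divided by its level in the matched macrophages of the same mouse. In i4F mouse 1, Csf1r in stellate cells reached 6.09% of its macrophage level, and the other 7 genes had a median of 1.25% and a range of 0.973% to 1.79%. In i4F mouse 2 Csf1r reached 22.2%, and the other 7 had a median of 1.04% and a range of 0.830% to 1.47%. In i4F mouse 3 these were 1.48%, 0.488% and 0.157% to 0.698%, so that Csf1r stood above the range of the other 7 genes in all 3 i4F mice. In the caerulein mice Csf1r was at 6.26% and 4.61%, also above the ranges of the other 7 genes, 3.74% to 4.97% and 1.47% to 3.52%. In the WT mice it was at 0.248% and 0.175%, within the ranges of 0% to 0.405% and 0.0394% to 0.480%. Of the 6 macrophage markers, C1qa, C1qb, C1qc, Lyz2 and Fcgr1 lay at 1.05% to 1.23% in i4F mouse 1, 0.987% to 1.37% in i4F mouse 2, 0.436% to 0.903% in i4F mouse 3, and 4.46% to 4.86% and 2.50% to 3.55% in the caerulein mice. Apoe, which stellate cells of WT mice also held at 714 and 2016 CPM, stood at 1.30%, 2.45% and 19.0% in the i4F and 4.74% and 3.48% in the caerulein mice.

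**Figure D4:**
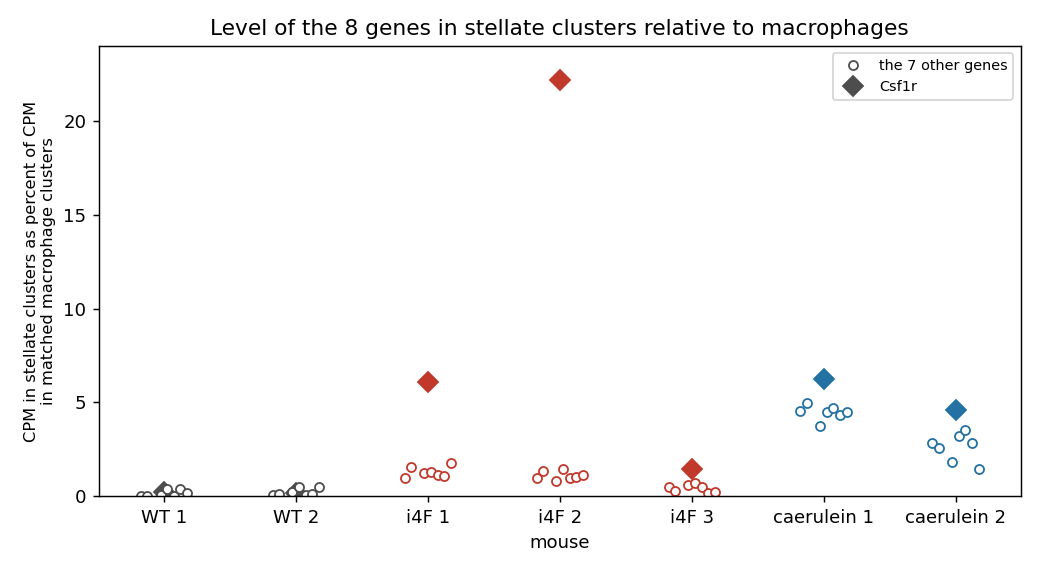
Level of each gene in stellate clusters as a percent of its level in the matched macrophages of the same mouse, on a linear axis, with Csf1r as a diamond and the other 7 genes as circles. Csf1r stands above the other 7 genes in the 3 i4F mice and both caerulein mice, with i4F mouse 2 at 22.2%, and among them in the WT mice.

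Thinned to 1000 UMIs, with 235 WT, 725 i4F and 203 caerulein stellate cells too shallow to enter, 0.374% and 0.0854% of WT, 1.57%, 4.18% and 0.376% of i4F and 1.37% and 1.24% of caerulein stellate cells had a Csf1r UMI (unthinned, 0.703% and 0.160% of WT, 1.64% to 25.6% of i4F, and 10.0% and 4.71% of caerulein cells). The endothelial cells of the same mice gave 0.425% and 0.253%, 0.741%, 0.538% and 0.355%, and 3.43% and 5.08%. The stellate share exceeded the endothelial share in i4F mice 1 and 2, where the latter rests on 1 cell each of 135 and 186. It was about equal to the endothelial share in i4F mouse 3 and lower in the caerulein mice. The median depth before thinning was 2554.5 to 9918 UMIs per stellate cell and 601 to 1483 UMIs per endothelial cell by mouse. The endothelial share is thus no like background, and no expression by stellate cells is read from these shares in any group. The i4F call held without i4F mouse 3 (adjusted p = 0.000817) and was lost without WT mouse 1 (0.143), WT mouse 2 (0.109), caerulein mouse 1 (0.061), caerulein mouse 2 (0.0603), i4F mouse 1 (0.0574) or i4F mouse 2 (0.0598), by edgeR. It was also lost with the 2 groups alone (adjusted p = 0.0592) and with series as a term (0.104). The caerulein call was lost without WT mouse 1 (0.157), WT mouse 2 (0.134), caerulein mouse 1 (0.166) or caerulein mouse 2 (0.128), and with series as a term (0.15). Trem2, a macrophage lipid receptor of the fixed list below, was likewise seen in stellate clusters, at 34.0, 40.5 and 35.6 CPM in the i4F and 57.1 and 43.4 CPM in the caerulein mice against 0.187 and 0.877 CPM in WT. The genes of the CSF1R ligands did not pass there for i4F against WT: Csf1 was at 105 and 152 CPM in WT and 97.4, 121 and 195 CPM in i4F stellate cells (log2 fold change 0.25, adjusted p = 0.629), and Il34 at 87.7 and 67.5 CPM against 6.60, 4.62 and 40.3 CPM (log2 fold change -2.07, adjusted p = 0.117). The i4F difference of Il34 passed with DESeq2 (adjusted p = 0.0484) and, by edgeR, without a filter (1.66e-05) and without i4F mouse 3 (0.000141; log2 fold change -3.62). In the caerulein mice Il34 was at 15.9 and 23.8 CPM, below both WT mice, and also missed the threshold (log2 fold change -1.82, adjusted p = 0.202), but passed without a filter (0.00124), with the 2 groups alone (0.00396) and without i4F mouse 3 (0.00203). All of these stellate comparisons pool clusters whose named states differ between WT and the other groups.

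Lists of related genes, chosen with earlier results of these data known, were read in the matched macrophages beside the 8. Over all genes there, 6.08% were called for i4F against WT (2.95% higher) and 9.44% for caerulein against WT (5.3% lower). Of 12 genes of the CSF1R axis and macrophage regulators, 1 rose in i4F against WT: Itgb2, the partner of Itgam in the integrin, at 149 and 101 CPM in WT and 357, 471 and 257 CPM in i4F mice (log2 fold change 1.72, SE 0.34, adjusted p = 0.0245 by edgeR). As for Itgam, the i4F and WT mice did not overlap. Of the 12, 2 rose and 1 fell with caerulein, Trem2 by 1.80 and Tyrobp, a signalling adaptor of TREM2, by 1.00, with Csf1 lower by 1.65 on the log2 scale (log2 fold change -1.65) at 2 to 82 UMIs in the mice compared. The median log2 fold change of the list was 0.23 for i4F and 0.18 for caerulein, beside 0.05 and 0.04 over all genes.

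Of 12 resident macrophage genes, 6 fell and 1 rose with caerulein, and 1 fell and 1 rose in i4F mice, beside the 9.44% and 6.08% of all genes called. With caerulein Lyve1, a hyaluronan receptor, was at 50.0 and 13.8 CPM against 121 and 339 CPM in WT (log2 fold change -2.73, adjusted p = 0.03), and Clec10a, a galactose-type lectin, at 36.9 and 37.4 CPM against 110 and 309 CPM (log2 fold change -2.44, adjusted p = 0.0187), by edgeR. Fcna, Cd209f, Timd4 and Mgl2 also fell, Mgl2 from 434 and 407 CPM to 0.732 and 0.780 CPM. Pf4 rose, from 2009 and 2482 CPM to 7154 and 5144 CPM. In i4F mice Timd4 passed as lower (log2 fold change -3.37), at 14.2 and 68.6 CPM in WT and 4.04, 2.04 and 20.6 CPM in i4F mice, although i4F mouse 3 lay above WT mouse 1. Vsig4, a complement receptor, passed as higher against WT mice that held 0 UMIs of it, at 23.5, 14.9 and 10.3 CPM in i4F. In WT mouse 1 as few as 3 UMIs would have been 10.7 CPM, so i4F mouse 3, with 5 UMIs, was not distinguishable from it at this depth. The list's median log2 fold change was -1.67 for caerulein and -0.24 for i4F. Markers of other cells are given beside this for caerulein against WT: all 5 stellate markers had negative log2 fold changes (median -1.30, with Dcn called), as had all 5 blood endothelial markers (median -2.33, with 0 called). The stellate markers summed to 28.4 and 1948 CPM in WT and 137 and 104 CPM in caerulein mice, and the endothelial markers to 32.0 and 406 CPM and to 78.6 and 65.7 CPM, so WT mouse 2 was the high one in both. Lyve1 is a lymphatic endothelial marker too, and the part of other cells in the list's counts was not tested.

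Of 8 monocyte genes, 2 rose and 1 fell in i4F mice and none passed with caerulein (edgeR), beside 6.08% and 9.44% of all genes. Plac8 rose from 114 and 25.8 CPM in WT to 374, 826 and 730 CPM in i4F mice (log2 fold change 3.51, adjusted p = 0.0171). Plac8 was also abundant in stellate cells and rose there as well, from 306 and 205 CPM in WT to 587, 917 and 495 CPM in i4F mice (log2 fold change 1.55, adjusted p = 0.0252), while the 5 stellate markers summed to 28.4 and 1948 CPM in WT and 358, 238 and 111 CPM in i4F matched macrophages. A ductal marker, Krt19, passed as higher in i4F matched macrophages too, at 0 and 2.98 CPM in WT and 11.5, 15.5 and 22.6 CPM in i4F mice (adjusted p = 0.035), and the part of RNA from other cells in these rises was not tested. Ly6c2 rose from 14.2 and 3.98 CPM in WT macrophages to 71.6, 405 and 96.6 CPM (log2 fold change 5.02, adjusted p = 0.0269). Cx3cr1, the fractalkine receptor, fell by 2.98 on the log2 scale. Ccr2, the chemokine receptor of inflammatory monocytes, was at 181 and 110 CPM in WT and 97.3, 131 and 72.0 CPM in i4F mice and did not pass (adjusted p = 0.592). Against caerulein, Ly6c2 and Plac8 were among the genes higher in i4F macrophages, as were Lyve1, Fcna and Vsig4 of the resident list. Over all clusters named macrophages none of these list genes passed for i4F against WT by edgeR, and with caerulein Trem2 rose and Clec10a and Timd4 fell.

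The genes most like the 8 were sought over 92 units of mouse by cluster with at least 20 cells, among 11242 genes, by Pearson's r of log2(CPM + 10). The units share libraries, so r is a description. Folr2 followed the mean of the 8 most closely (r = 0.956), before C3ar1 (0.946), Aif1 (0.945), C1qc (0.938) and Tbxas1 (0.937). By member, C3ar1 was nearest to Adgre1 (r = 0.966), Pirb to Itgam (0.951), Aif1 to Csf1r (0.925) and Cd68 (0.946), Ltc4s to Mrc1 (0.892), Folr2 to Ms4a7 (0.945) and Cbr2 (0.953), and Ccl12 to Cd163 (0.899). Among the 8 themselves, Adgre1 and Ms4a7 were most alike (r = 0.961), Mrc1 was nearest to Cd163 (0.873), and Itgam and Cbr2 were least alike (0.646).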

How the data were processed

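The deposited tables, 1 per group, hold whole-number UMI counts per gene and cell, from the authors' counting with Cell Ranger on mm10. They do not list every gene. Of 14 acinar genes looked up, Spink1 alone is listed, and Cpa1, Cpb1, Ctrb1, Prss2 and Pnlip are among those listed for no group. UMI totals and CPM, above all those over all cells, therefore leave such transcripts out. The deposited metadata give the library, the cluster name, the UMI total and the percent of mitochondrial UMIs per cell as the authors computed them, which were used to map cells and not to filter them. The authors corrected ambient RNA with SoupX, and whether the counts precede or follow that step is not given in the sources used here. The members and lists were chosen with earlier results of these data known. All 8 members are named, and of the lists genes that passed. Some items are not reported here.

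UMIs were summed per mouse over clusters named macrophages, over matched clusters, over stellate clusters and over all cells. Library totals per mouse were 15469018 to 64784216 UMIs, and the precision at low counts is that of the UMIs given. The test was edgeR's two-sided quasi-likelihood test (edgeR 4.0.16, R 4.3.3), fitted once to all 7 mice in their 3 groups, with TMM, filterByExpr, Benjamini-Hochberg adjustment and a threshold of 0.05. SE is the log2 fold change divided by the root of F. The settings tried beside it were leaving out each mouse, narrower macrophage clusters, dropping cells under 500 genes, a term for library series, a replicate block, the 2 compared groups alone, no filter on low counts, no TMM, and DESeq2 1.42.0. Matched clusters, the stellate comparison and crossed replicate numbers were added after seeing the data. Doublets were kept. On simulated data with 200 genes changed 4-fold in i4F against WT, the test recovered 44% in macrophage clusters (12077 genes), 48.5% in matched clusters (12272 genes), 53.5% in stellate clusters (14818 genes) and 0% over all cells (18340 genes). Levels are CPM of UMIs and, since the assay reads transcript ends, were not scaled by length.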

Additional observations from a re-analysis of the deposited data

How the results depend on the processing

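Counts below are of the 8 genes called by edgeR unless another tool is named. Except for macrophage clusters and crossed numbers, the number of all genes called in each setting is not given beside them. In macrophage clusters, i4F against WT (0 genes) gave 1 with DESeq2, without a filter or with the replicate block, 8 without WT Macrophages_1, i4F Macrophages_2 and i4F Macrophages_3, and 0 to 2 with a mouse left out. That last choice of clusters keeps WT Macrophages_2, the cluster with dendritic cell markers, as the WT macrophages. Caerulein against WT (1) gave 4 without a filter, 0 with series as a term, 7 with those clusters left out, 4 with crossed replicate numbers and 0 to 2 with a mouse left out. i4F against caerulein (0) gave 1 without TMM, 3 with DESeq2, 4 without a filter, 1 with the block, 1 with those clusters left out and 0 to 2 with a mouse left out. In all cells, i4F against WT (0) gave 2 without TMM, 3 with DESeq2, 3 without a filter, 4 with the block and 0 to 5 with a mouse left out, and caerulein against WT (5) gave 8 with DESeq2, 8 without a filter, 0 with series as a term, 8 with crossed numbers and 0 to 8 with a mouse left out. In matched clusters, i4F against WT (1) gave 2 without a filter, 0 with the 2 groups alone, 2 with the block, 0 with series and 0 to 3 with a mouse left out. Caerulein against WT (1) gave 3 without a filter, 2 with the 2 groups alone, 0 with the block, 2 with series, 4 with crossed numbers and 0 to 2 with a mouse left out. i4F against caerulein (1) gave 2 with DESeq2, 4 without a filter, 0 with the 2 groups alone, 3 with the block, 0 with series, 0 with cells of at least 500 genes and 0 to 2 with a mouse left out. Of all genes in macrophage clusters, 1 was called for i4F against WT, and 5 without TMM, 516 with DESeq2, 1425 without a filter, 0 with the 2 groups alone, 797 with the block, 0 with series, 4 without i4F Macrophages_2, 1576 with those clusters left out and 0 to 1499 with a mouse left out, the highest without i4F mouse 3. For caerulein against WT 683 were called, and 1650 with DESeq2, 2363 without a filter, 1509 with the 2 groups alone, 1203 with the block, 73 with series, 1891 with those clusters left out and 0 to 1990 with a mouse left out. Log2 fold changes that turned with those clusters left out were, for i4F against WT, Adgre1 (3.39), Csf1r (1.77), Mrc1 (3.94), Ms4a7 (5.75), Cbr2 (7.10) and Cd163 (3.29), for caerulein against WT Csf1r (1.66), Mrc1 (3.50) and Cd163 (2.70), and for i4F against caerulein Csf1r (0.10). With series as a term, Mrc1 (0.80) and Cd163 (0.32) turned for i4F against WT and Csf1r (0.42) for i4F against caerulein in macrophage clusters, and Mrc1 (0.13) and Csf1r (-0.0033) for the same comparisons in matched clusters. Without a filter Mrc1 turned in i4F against caerulein (-0.0248), without TMM Adgre1 in caerulein against WT of the matched clusters (-0.0086), and with the block Csf1r in i4F against caerulein of the matched clusters (-0.12) and Csf1 in stellate cells of i4F against WT (-0.0845). With a mouse left out, log2 fold changes in macrophage clusters ranged over both signs for Mrc1 (-0.67 to 0.83 for i4F against WT, -0.70 to 0.79 for caerulein against WT, -0.30 to 0.43 for i4F against caerulein), Cd163 (-0.60 to 0.35, -0.80 to 0.14, -0.0140 to 0.45) and Csf1r (-0.38 to 0.0902 for caerulein against WT and -0.21 to 0.0236 for i4F against caerulein). In matched clusters they did so for Mrc1 in i4F against WT (-0.81 to 0.14) and Csf1r in i4F against caerulein (-0.10 to 0.32), and in stellate cells for Csf1 in i4F against WT (-0.12 to 0.67). With the block, Cbr2 passed in matched clusters for i4F against WT (-1.62, adjusted p = 0.0171) and against caerulein (-1.80, 0.0133), Il34 passed in stellate cells for i4F (-3.63, 0.00124) and caerulein (-1.81, 0.00856) against WT, and Cd163 missed the threshold in matched clusters (0.0529). In all cells, for caerulein against WT, Itgam passed without TMM (adjusted p = 0.0446) and with the 2 groups alone (0.00193). Itgam also passed there with the block (0.00381) and with cells of at least 500 genes (0.0475), and Cd163 with the 2 groups alone (0.0402) and the block (0.0355). These gains come on top of the 5 genes of the main fit. The cause of these changes was not tested. Same-numbered mice did not deviate together (correlations of their deviations from -0.48 to 0.13), so the numbers are read as names and the replicate block as an alternative. Since the WT and caerulein mice with the same number deviated in opposite directions, crossed numbers were tried for WT and caerulein alone, which called 2032 genes in macrophage clusters, 1584 in matched clusters and 9916 in all cells, against 732, 268 and 4794 with the same numbers. The crossing was chosen on these deviations, so the higher counts follow from the choice and support nothing. Depth limits WT mouse 1 most, with 29 Cd163 and 40 Itgam UMIs in its matched cells, and 2 or 3 mice a group limit every comparison. The alternatives were not run on the list genes.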
